A study of Rattus norvegicus with 11 samples.

Results

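CTS, a porous chitosan scaffold, was compared with GelMA, a gelatin methacryloyl hydrogel, in cells taken from healing skull defects of the rat. The comparison used every library that the labels assign to these scaffolds, 3 of CTS and 3 of GelMA, which is 6 of the 11 libraries of the series, and the 16077 of 23781 genes that passed a filter on low counts. All animals were Sprague Dawley rats aged 4 months with a calvarial defect cut across suture and bone, and the new tissue was taken after 6 weeks with the scaffold in place. The tissue was digested with collagenase, the cells were fixed, permeabilised and sorted as Cd45-, and their total RNA was sequenced. The other 5 libraries came from empty defects (NC, 3) and from defects with a PLA scaffold (2). The labels do not say whether the libraries of a group came from separate animals, so p-values measure only the spread between these libraries.

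An implanted scaffold meets the innate immune system early. Neutrophils arrive ahead of other leukocytes and carry antimicrobial proteins that are made in order while the cell matures in the marrow, primary granules ahead of secondary and tertiary ones. Monocytes follow and become macrophages, which take up debris, present antigen on MHC class II molecules and release cytokines, and lymphocytes enter later, while fibroblasts and bone-forming cells lay down matrix.

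CTS held more RNA of granulocytes, of mast cells and basophils, and of dividing cells, while GelMA held more RNA of T cells and plasma cells, of 8 of 22 B cell genes, and of 31 of 86 genes listed for macrophages, monocytes and antigen presentation, inflammatory mediators among them. Transcripts of the main structural collagens did not pass the test in either direction. A gene was called at an adjusted p under 0.05 with a log2 fold change beyond 1 in size (edgeR quasi-likelihood test on counts, Benjamini-Hochberg adjustment), and every fold change below is CTS minus GelMA. In all, 795 genes (4.94% of those tested) were called higher in CTS and 744 (4.63%) were called lower, together 9.57%, and the median log2 fold change over all tested genes was -0.01. The libraries of both groups did not overlap in 38.4% of tested genes. Levels are given as CPM, counts scaled to library size after TMM normalisation, in the order of replicates 1, 2 and 3. In bulk RNA, fewer cells of a type and less RNA per cell cannot be told apart.

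**Figure D1:**
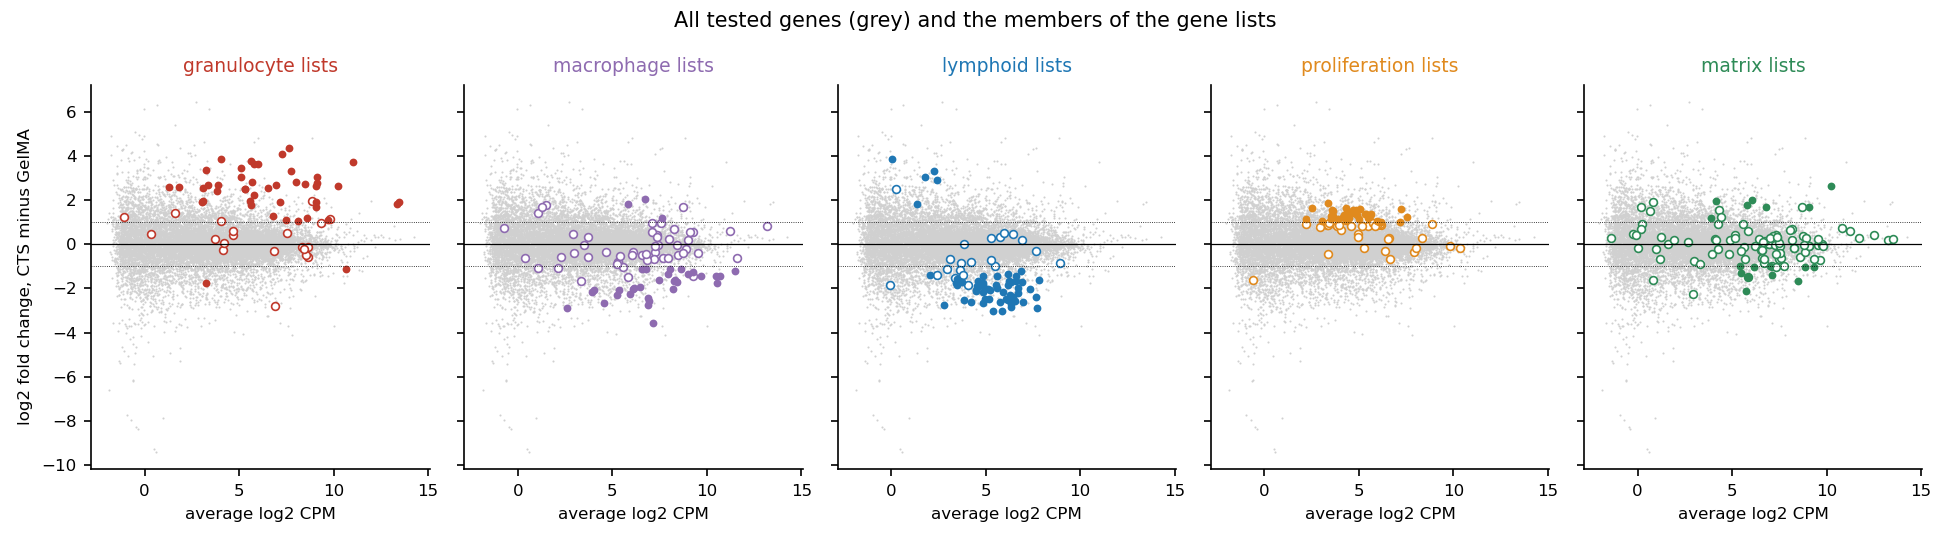
Log2 fold change (CTS minus GelMA) against average log2 CPM for the 16077 tested genes in grey, repeated in 5 panels with the members of the granulocyte, macrophage, lymphoid, proliferation and matrix lists in colour (filled, called; open, not called; dotted lines, fold threshold of 1). Filled points lie mostly above 0 for granulocyte lists (43 higher, 2 lower) and proliferation lists (37 higher, 0 lower), mostly below 0 for lymphoid lists (5 higher, 51 lower) and macrophage lists (3 higher, 31 lower), and on both sides for matrix lists (7 higher, 10 lower).

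The libraries were of similar depth, with 29108144 to 30587865 counts in GelMA and 28377088 to 31290849 in CTS. Pearson correlation of log2 CPM across genes ran from 0.968 to 0.978 within GelMA, from 0.955 to 0.963 within CTS and from 0.910 to 0.950 between the groups. On the first principal component (54.3% of variance) GelMA libraries lay between -61.0 and -50.2 and CTS libraries at 58.1, 77.7 and 28.7, so CTS replicate 3 stood nearest to GelMA. Mitochondrial genes held 4.53 to 5.31% of counts in GelMA and 5.62 to 6.52% in CTS, ranges that do not overlap, and the part of this share in the results below was not tested. Without CTS replicate 3, 1013 genes were called higher and 967 lower, and without it and GelMA replicate 3, which was lowest in many granulocyte genes, 948 and 842 were. Without GelMA replicate 2 the counts were 328 and 369, and without GelMA replicate 3 they were 485 and 477. A fit that also held the NC and PLA libraries called 75 higher and 239 lower. It called 671 and 604 once NC replicate 2 was left out.

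The sort was labelled Cd45-, yet Ptprc, the gene of Cd45 and a marker of all leukocytes, was measured at 1492, 1246 and 1384 CPM in GelMA and 1406, 1330 and 1135 CPM in CTS. Its log2 fold change was -0.09 (SE 0.13, adjusted p = 0.676), and the groups overlapped. Whether the antibody of the sort binds rat Cd45 was not tested. Leukocyte RNA was present in all 6 libraries beside RNA of matrix-forming cells such as Col1a1 (1615 ± 60.7 FPKM in GelMA and 1780 ± 414 in CTS, mean ± SD, n = 3).

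Granulocyte RNA was higher in CTS. Of 75 genes listed for neutrophils, eosinophils, mast cells and basophils, 71 were in the table and 65 were tested, and 43 of these were called higher and 2 lower (69.2% called, beside 9.57% of all tested genes). The median log2 fold change of the tested members was 1.94, beside -0.01 over all tested genes. In the fit on all 4 groups 10 members were called higher, and 43 were once NC replicate 2 was left out.

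Genes of the primary granules, whose proteins are made at the promyelocyte stage, were higher in CTS. Mpo, the myeloperoxidase that makes hypochlorous acid, stood at 163, 182.5 and 76.0 CPM in GelMA and 991, 1213 and 698 CPM in CTS, with a log2 fold change of 2.78 (SE 0.36, adjusted p = 0.00508). Every CTS library lay above every GelMA library, and GelMA replicate 3 was the lowest of the 6. Elane, neutrophil elastase, stood at 30.8, 34.8 and 14.2 CPM in GelMA and 156, 201 and 119 CPM in CTS (2.58, SE 0.36, adjusted p = 0.00588), and its libraries fell in the same order. Of the 13 genes of primary granules and myeloid precursors 10 were called higher. They include Ctsg (2.74) and Prtn3 (2.51), the other serine proteases of these granules, Fcnb (2.63), a ficolin that binds sugars of microbes, and the regulators Cebpe (2.41) and Myb (1.77), which act in maturing granulocytes and in progenitors. Gfi1 (-0.27), Kit (0.41) and Cd63 (-0.13) were not called.

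Among secondary and tertiary granule genes, which follow later in maturation, 7 of 13 tested were called higher and 0 lower. Ngp, a neutrophil granule protein, was measured at 453, 290.2 and 127 CPM in GelMA and 4218, 6420 and 1012 CPM in CTS, a log2 fold change of 3.74 (SE 0.75, adjusted p = 0.0178). All CTS values exceeded all GelMA values, but they spread widely, CTS replicate 2 being the highest and replicate 3 the lowest. Olfm4 (3.32), Camp (3.06), which encodes cathelicidin, and Mmp8 (2.66), the neutrophil collagenase, were also called, whereas Lcn2 (1.14, adjusted p = 0.0628), Cd177 (1.95, adjusted p = 0.0649) and Itgam (-0.13) were not. Ltf, lactoferrin, did not pass the filter on low counts. Without GelMA replicate 2 this list had 4 members called instead of 7.

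The alarmins S100a8 and S100a9, which form calprotectin and are among the most abundant transcripts of neutrophils, together held 0.444 to 1.21% of counts in GelMA and 2.61 to 4.05% in CTS. S100a8 stood at 5702, 5844 and 1990 CPM in GelMA and 16510, 19780 and 12550 CPM in CTS, a log2 fold change of 1.85 (SE 0.41, adjusted p = 0.0233), and S100a9 at 1.94 (SE 0.36, adjusted p = 0.0139). GelMA replicate 3 was well below the other GelMA libraries, and the groups did not overlap. In all, 11 of 18 genes listed as neutrophil alarmins, receptors or mature markers were called higher. Among them were Hdc (3.66), the enzyme that makes histamine, the chemokine receptor Cxcr2 (1.26) and the formyl peptide receptors Fpr1 (1.98) and Fpr2 (2.70). In NC replicates 1, 2 and 3, scaled over all 11 libraries, Hdc stood at 121.8, 143.5 and 104.9 CPM and S100a8 at 25020, 3236 and 17250 CPM. Ms4a2, a subunit of the IgE receptor, stood there at 115.6, 106.1 and 94.52 CPM. Hdc thus kept its level in NC replicate 2, as Ms4a2 did and S100a8 did not. Which cells held the Hdc RNA was not tested. Csf3r (-0.46), the receptor of the granulocyte growth factor, and Il1r2 (-0.23), a decoy receptor of interleukin 1, were not called. Cxcl2, a chemokine that binds Cxcr2, was the member called lower, at 1771, 1939 and 2826 CPM in GelMA and 1263, 820.1 and 968 CPM in CTS (-1.10, SE 0.22, adjusted p = 0.0161). The list kept 6 members called higher and 0 lower without GelMA replicate 2.

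Of 11 tested mast cell and basophil genes 10 were called higher in CTS, and each of the 10 kept its call whichever single library was left out. Cpa3, the carboxypeptidase of mast cells, stood at 10.7, 15.7 and 12.4 CPM in GelMA and 104, 72.0 and 97.5 CPM in CTS, a log2 fold change of 2.82 (SE 0.20, adjusted p = 0.00157). Every CTS library lay far above every GelMA library. Mcpt8, a protease of basophils, stood at 22.9, 20.1 and 7.0 CPM in GelMA and 347, 360.2 and 160.3 CPM in CTS (4.12, SE 0.52, adjusted p = 0.00492). Subunits of the IgE receptor, Fcer1a (3.36) and Ms4a2 (3.63), the chymase Cma1 (3.06), the tryptases Tpsb2 (1.97) and Tpsab1 (1.92) and the transcription factor Gata2 (2.71) were called as well, and Il3ra (0.59) was not. Proteases of the Mcpt and Prss families are close paralogs, so how reads were divided among them is uncertain. The list held 0.0103 to 0.0126% of counts in GelMA and 0.0680 to 0.0977% in CTS. In the fit on all 4 groups 5 of its members were called.

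Eosinophil genes were more variable between CTS libraries. Epx, eosinophil peroxidase, stood at 7.89, 8.24 and 3.6 CPM in GelMA and 66.6, 185 and 20.8 CPM in CTS, a log2 fold change of 3.79 (SE 0.79, adjusted p = 0.0201). Prg2, the major basic protein of the eosinophil granule, stood at 24.7, 22.5 and 8.89 CPM in GelMA and 435, 590.2 and 123 CPM in CTS (4.36, SE 0.66, adjusted p = 0.00822). For both genes CTS replicate 2 was the highest and CTS replicate 3 the lowest of its group, and still above GelMA. Of 10 tested members 5 were called higher and 1 lower, and fold changes ran from -2.80, in a member not called, to 4.36. The groups did not overlap in 5 members higher in CTS and 2 lower, beside 38.4% of all tested genes without overlap. DESeq2 on the 6 libraries called 7 of 11 higher and 2 lower. Ccr3, the eotaxin receptor, was the member called lower, at 14.5, 11.6 and 18.1 CPM in GelMA and 2.58, 6.50 and 4.17 CPM in CTS (-1.74). Epx and Prg2 thus went in the opposite direction to this surface receptor of eosinophils. Leaving out any 1 GelMA library left 3 members called higher. The summed list held 0.0235 to 0.0305% of counts in GelMA and 0.0234 to 0.10% in CTS, ranges that overlap because CTS replicate 3 lay low.

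Of the 45 granulocyte members called, 29 kept their call whichever single library was left out, Mpo, Elane, Ctsg, Fcnb, Olfm4, Mmp8, Hdc, S100a9, Cxcr2, Prg2 and Ccr3 among them. The adjusted p of edgeR rose to 0.05 or more without 1 library for Prtn3 (0.0579 without CTS replicate 3), Cebpe (0.0523 to 0.0745 without GelMA replicate 1, 2 or 3 or CTS replicate 1 or 2) and Myb (0.0638 without GelMA replicate 2). So it was for Ngp (0.0526 to 0.0691 without GelMA replicate 2 or CTS replicate 1), Camp (0.0592 without GelMA replicate 2) and S100a8 (0.0531 to 0.0677 without GelMA replicate 2 or CTS replicate 1, 2 or 3). Also lost were Fpr1 (0.0556 to 0.0612 without GelMA replicate 2 or CTS replicate 1), Fpr2 (0.0640 without GelMA replicate 2), Cxcl2 (0.0525 to 0.0533 without GelMA replicate 2 or CTS replicate 2, log2 fold change -0.87 without GelMA replicate 3) and Epx (0.0569 to 0.0681 without GelMA replicate 1, 2 or 3).

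**Figure D2:**
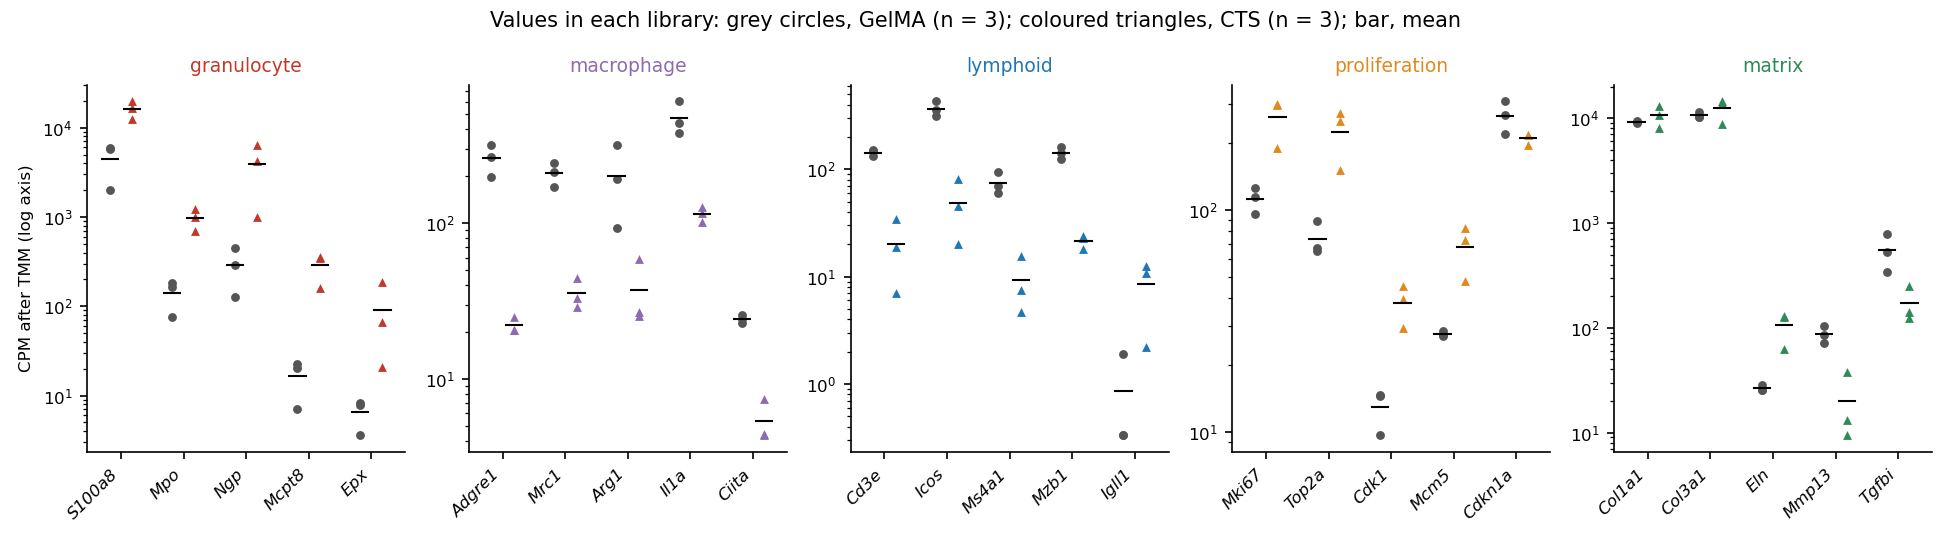
CPM after TMM on a log axis for 5 genes of each theme in the 3 GelMA libraries (grey circles) and the 3 CTS libraries (coloured triangles), with group means as bars. The groups do not overlap for S100a8, Mpo, Ngp, Mcpt8 and Epx (higher in CTS), for the macrophage genes shown, Cd3e, Icos, Ms4a1, Mzb1, Mmp13 and Tgfbi (lower in CTS), and for Igll1, Mki67, Top2a, Cdk1, Mcm5 and Eln (higher in CTS), and for Cdkn1a, which was not called, while Col1a1 and Col3a1 overlap.

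Most called genes of macrophages were lower in CTS, although the summed identity list was higher in CTS. Of 90 genes listed for macrophages, monocytes and antigen presentation 87 were in the table and 86 were tested, 31 were called lower in CTS and 3 higher (39.5% called, beside 9.57% of all tested genes). The median log2 fold change was -0.63. The fit on all 4 groups called 14 lower and 2 higher, and 30 and 4 once NC replicate 2 was left out. Without GelMA replicate 2 there were 18 lower and 3 higher. Without CTS replicate 2 there were 24 lower and 8 higher.

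Genes of settled tissue macrophages were lower in CTS where they were called. Adgre1, which encodes the F4/80 surface receptor, stood at 317, 266 and 197 CPM in GelMA and 20.6, 25.1 and 20.7 CPM in CTS, a log2 fold change of -3.55 (SE 0.20, adjusted p = 0.000855), and its call held in each of 20 alternative settings. Every GelMA library lay far above every CTS library. Mrc1, the mannose receptor, stood at 213, 244 and 170.2 CPM in GelMA and 29.1, 33.1 and 44.6 CPM in CTS (-2.55, SE 0.20, adjusted p = 0.00168), and Cd163, the haemoglobin scavenger receptor, was low in both groups and lower in CTS (-2.89, SE 0.32, adjusted p = 0.00275). The complement genes C1qa (-1.98), C1qb (-2.07) and C1qc (-2.32), the scavenger receptor Msr1 (-1.64), Mertk (-2.05), which binds dying cells, and Aif1 (-1.12) completed the 9 of 19 identity genes called lower, with 0 higher. Csf1r, the receptor of the macrophage growth factor, stood at 232, 254 and 246 CPM in GelMA and 148, 149 and 182 CPM in CTS and passed the p threshold but not the fold threshold (-0.61, adjusted p = 0.0120), and Cd68 (-0.34), Sirpa (-0.02) and Lyz2 (0.83), which more myeloid cells share, were not called. Lyz2, a lysozyme also made by granulocytes, was the most counted member, and the summed list held 0.685 to 1.08% of counts in GelMA and 1.15 to 1.44% in CTS, the reverse of the order of the called members.

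Among 12 tested monocyte genes 2 were called higher in CTS and 0 lower, beside 4.94% and 4.63% of all tested genes. Their median log2 fold change was 0.52. Ccr2, the receptor that brings inflammatory monocytes out of the marrow, stood at 135, 124 and 109.8 CPM in GelMA and 311, 216 and 309 CPM in CTS, a log2 fold change of 1.18 (SE 0.16, adjusted p = 0.00465). F13a1, a transglutaminase subunit of monocytes, was also called higher (1.81, SE 0.24, adjusted p = 0.00463). The groups did not overlap for either gene, as in 38.4% of all tested genes. The other 10 tested members, Cx3cr1 (0.48) and Plac8 (0.69) among them, were not called.

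Genes of lipid handling and of the foreign-body response were mixed, with 1 of 18 called higher and 3 lower, or 5 and 2 without CTS replicate 2. The cholesterol exporters Abca1 (-1.33) and Abcg1 (-1.10) and the lipoprotein Apoe (-1.42) were lower in CTS, and Fabp4, a fatty acid carrier of macrophages and fat cells, was higher (2.06). Spp1, osteopontin, stood at 185, 204 and 217 CPM in GelMA and 526, 266 and 1137 CPM in CTS and was not called (1.67, SE 0.47, adjusted p = 0.0506), CTS replicate 2 lying close to GelMA. Genes of multinucleated giant cells and osteoclasts, Ocstamp (1.41, adjusted p = 0.0644) and Atp6v0d2 (1.78, adjusted p = 0.0818), were not called, and Dcstamp was not tested.

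Of 18 effector genes 11 were called lower in CTS and 0 higher by edgeR. The largest rise of a member, 1.68, was not called, and DESeq2 on the 6 libraries called 11 lower and 1 higher. Il1a, an alarmin cytokine, stood at 379, 437 and 606 CPM in GelMA and 128, 102 and 116 CPM in CTS, a log2 fold change of -2.04 (SE 0.19, adjusted p = 0.00226). Arg1, arginase, and Nos2, the inducible nitric oxide synthase, compete for arginine and are often used to mark opposed macrophage states, and both were lower, with log2 fold changes of -2.45 for Arg1 (SE 0.52, adjusted p = 0.0205) and -1.21 for Nos2 (SE 0.24, adjusted p = 0.0158). Arg1 was measured at 92.9, 193 and 319 CPM in GelMA and 26.9, 25.3 and 58.9 CPM in CTS, and the groups did not overlap, GelMA replicate 1 and CTS replicate 3 lying nearest to each other. The chemokines Cxcl3 (-2.75), Ccl3 (-1.26) and Ccl4 (-2.03), the cytokines Tnf (-1.92) and Il10 (-2.25), the interleukin 1 antagonist Il1rn (-1.75), Acod1 (-1.36), which makes itaconate, and Ptgs2 (-1.12), the prostaglandin synthase, were also called. Il1b (-0.62), Il6 (-0.67), Ccl2 (0.57), Vegfa (-0.40) and Tgfb1 (-0.09) were not. In GelMA, replicate 1 was the lowest and replicate 3 the highest for Il1a, Arg1, Nos2, Tnf, Il1rn and Acod1. The list kept 4 members called without GelMA replicate 2, and 7 without GelMA replicate 3, CTS replicate 1 or CTS replicate 2.

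Genes of antigen presentation by MHC class II were lower in CTS where they were called. Ciita, the coactivator that switches on class II genes, stood at 24.3, 22.8 and 25.6 CPM in GelMA and 4.34, 4.40 and 7.40 CPM in CTS, a log2 fold change of -2.17 (SE 0.23, adjusted p = 0.00273). The rat class II chains RT1-Ba (-1.72), RT1-Bb (-1.60), RT1-Da (-1.43) and RT1-Db1 (-1.64) and their chaperone Cd74, the invariant chain (-1.45), were called lower too, as were Irf8 (-1.10), a factor needed by dendritic cells, and Siglech (-2.65), a receptor of plasmacytoid dendritic cells. RT1-Da was measured at 1257, 1198 and 1139 CPM in GelMA and 420.1, 327 and 588 CPM in CTS, and the groups did not overlap. The loading factors RT1-DMa (-0.48) and RT1-DMb (-0.42), the costimulators Cd80 (-1.04) and Cd86 (-0.35), and Flt3 (-0.51), Xcr1 (-1.06) and Clec9a (-1.64) of dendritic cells were not called. In all 8 of 19 members were called, and 4 in the fit on all 4 groups. RT1 genes are polymorphic and similar in sequence, so their counts are uncertain.

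The 4 class II chain genes lie close together on chromosome 20, and the 250 bases ahead of each start site are shown because the genes moved together. The sequences are from RefSeq on GRCr8, a later build than the one used for the counts: RT1-Da (chr20:4515165-4515414, + strand), RT1-Db1 (chr20:4560163-4560412, - strand), RT1-Ba (chr20:4576807-4577056, + strand) and RT1-Bb (chr20:4604119-4604368, - strand). Capitals mark CTGATTGG, a form of the Y box, and a form of the X box upstream of it, the classic elements of class II promoters.
RT1-Da: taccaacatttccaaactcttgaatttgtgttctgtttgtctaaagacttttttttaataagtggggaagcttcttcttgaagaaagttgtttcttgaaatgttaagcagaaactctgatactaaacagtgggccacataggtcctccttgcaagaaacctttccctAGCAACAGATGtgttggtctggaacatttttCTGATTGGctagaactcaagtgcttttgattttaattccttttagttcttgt
RT1-Db1: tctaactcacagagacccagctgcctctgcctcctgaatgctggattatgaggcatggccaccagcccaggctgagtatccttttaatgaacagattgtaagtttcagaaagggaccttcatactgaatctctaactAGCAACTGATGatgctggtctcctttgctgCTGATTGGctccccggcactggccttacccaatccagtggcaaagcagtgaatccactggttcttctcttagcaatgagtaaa
RT1-Ba: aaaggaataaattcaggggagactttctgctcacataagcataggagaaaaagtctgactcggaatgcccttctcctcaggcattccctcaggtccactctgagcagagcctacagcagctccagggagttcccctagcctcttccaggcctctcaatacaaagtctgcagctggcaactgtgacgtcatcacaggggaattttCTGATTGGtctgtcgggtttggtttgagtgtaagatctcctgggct
RT1-Bb: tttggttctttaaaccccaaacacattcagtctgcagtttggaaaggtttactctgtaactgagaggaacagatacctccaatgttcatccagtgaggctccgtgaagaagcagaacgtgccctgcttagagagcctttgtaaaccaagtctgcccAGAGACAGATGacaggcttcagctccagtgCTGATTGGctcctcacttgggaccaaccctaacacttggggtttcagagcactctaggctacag

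Of the 19 listed genes 16 had an entry in the promoter table. On either strand CTGATTGG was found in 5 of them (the 4 chain genes and Irf8), beside 3.44% of the 27457 symbols in the table, and the X box form in 3 (RT1-Bb, RT1-Da and RT1-Db1), beside 0.852%. Of the 8 called members 7 had an entry and 5 held CTGATTGG, which contains the reverse complement of CCAAT. A match of letters is a description and not evidence of binding.

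Of the 34 macrophage members called, 16 kept their call whichever single library was left out, Adgre1, Mrc1, Cd163, C1qc, Msr1, Ccr2, F13a1, Abca1, Il1a, Cxcl3, Il10, Ciita, Cd74, RT1-Da, RT1-Bb and Siglech. The adjusted p of edgeR rose to 0.05 or more, or the fold change fell under the threshold, without 1 library for C1qa (0.0756 to 0.125 without GelMA replicate 1, 2 or 3 or CTS replicate 1), C1qb (0.0561 to 0.0576 without GelMA replicate 2 or CTS replicate 1) and Mertk (0.0681 to 0.104 without GelMA replicate 1, 2 or 3 or CTS replicate 1). In the same way the call ended for Aif1 (log2 fold change -0.95 without CTS replicate 2), Apoe (0.0523 to 0.0806 without GelMA replicate 1, 2 or 3 or CTS replicate 1) and Abcg1 (log2 fold change -0.86 without CTS replicate 2). The same held for Fabp4 (0.0557 to 0.101 without GelMA replicate 1, 2 or 3 or CTS replicate 1 or 3), Arg1 (0.0506 to 0.0774 without GelMA replicate 2 or CTS replicate 1, 2 or 3) and Nos2 (0.0547 to 0.0605 without GelMA replicate 2 or CTS replicate 2, log2 fold change -0.97 without GelMA replicate 3). Calls that ended likewise were those of Ccl3 (0.0526 without GelMA replicate 2), Ccl4 (0.0502 to 0.0818 without GelMA replicate 1, 2 or 3 or CTS replicate 1) and Tnf (0.0776 to 0.113 without GelMA replicate 2 or 3 or CTS replicate 1 or 2). This was also seen for Il1rn (0.0504 to 0.0790 without GelMA replicate 2 or CTS replicate 1, 2 or 3), Acod1 (0.0549 to 0.0651 without GelMA replicate 2 or CTS replicate 3) and Ptgs2 (log2 fold change -0.95 without GelMA replicate 3). So it was for RT1-Ba (0.0533 to 0.160 without GelMA replicate 2 or 3 or CTS replicate 1 or 3), RT1-Db1 (0.0516 to 0.0596 without GelMA replicate 2 or 3) and Irf8 (log2 fold change -0.92 without CTS replicate 2).

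Lymphocyte RNA was lower in CTS. Of 80 listed genes 79 were in the table and 77 were tested, 51 were called lower and 5 higher (72.7% called, beside 9.57% of all tested genes), and the median log2 fold change was -1.76. The fit on all 4 groups called 33 lower and 0 higher, and 49 and 4 once NC replicate 2 was left out. Without GelMA replicate 2 the counts were 34 and 1.

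All 22 T cell genes were tested and called lower. In all 22 the libraries of the groups did not overlap, beside 38.4% of all tested genes. Cd3e, a chain of the T cell receptor complex, stood at 148, 132 and 150.3 CPM in GelMA and 18.8, 7.07 and 34.2 CPM in CTS, a log2 fold change of -2.84 (SE 0.50, adjusted p = 0.0122). Among CTS libraries replicate 3 was the highest and replicate 2 the lowest, while the GelMA libraries lay close together. Icos, a costimulatory receptor of activated T cells, stood at 432, 315 and 355 CPM in GelMA and 45.6, 20.4 and 81.0 CPM in CTS (-2.91, SE 0.47, adjusted p = 0.00945). The lineage coreceptors Cd4 (-1.70) and Cd8a (-1.83) were lower, and so were Foxp3 (-1.76), the factor of regulatory T cells, the checkpoint Ctla4 (-3.03, SE 0.40, adjusted p = 0.00534), the kinases Lck (-2.29) and Zap70 (-2.5), and Cd28 (-2.60). The fold changes ran from -3.03 to -1.67. The list held 0.195 to 0.231% of counts in GelMA and 0.0197 to 0.0618% in CTS, and 13 members were called without CTS replicate 1, 14 without GelMA replicate 2 and 16 in the fit on all 4 groups.

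Cytotoxic and natural killer genes followed in part, 8 of 16 tested being called lower and 0 higher. Eomes (-2.61) and Tbx21 (-2.09), the factors of cytotoxic lymphocytes, Ccl5 (-2.59), Ctsw (-2.46), Gzmk (-1.96), Gzmm (-1.87), Klrk1 (-1.19) and perforin, Prf1 (-2.01), were the called members. Ccl5 stood at 174, 159 and 154 CPM in GelMA and 37.5, 10.6 and 33.0 CPM in CTS (SE 0.43, adjusted p = 0.0103), with CTS replicate 2 the lowest. Nkg7, a granule protein of cytotoxic cells, was in the other direction at 50.5, 52.4 and 51.5 CPM in GelMA and 80.3, 82.0 and 61.6 CPM in CTS (0.54, adjusted p = 0.0263), under the fold threshold, and Gzmb (0.27) and Ncr1 (-0.67) were not called. Without GelMA replicate 2, GelMA replicate 3 or CTS replicate 3, 3 members were called. Of 9 tested innate lymphoid and regulator genes 6 were called lower, including Ikzf3 (-2.40), Gata3 (-1.71) and the cytokine receptors Il2rb (-2.37), Il2rg (-1.63) and Il7r (-2.04), whereas Il1rl1 (0.49), the receptor of interleukin 33, was not called.

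B cell genes split by stage. The mature B cell antigen Ms4a1, which encodes Cd20, stood at 95.3, 70.1 and 59.8 CPM in GelMA and 7.54, 4.69 and 15.7 CPM in CTS, a log2 fold change of -3.01 (SE 0.44, adjusted p = 0.00698). The receptor chains Cd79a (-1.36) and Cd79b (-1.84), Cd22 (-1.46), Blk (-1.65), Bank1 (-1.42) and Fcrla (-1.78) were also lower, and 8 B cell genes were called lower in all. By contrast 5 genes of B cell precursors were called higher: Vpreb1 (3.86), Igll1 (3.32) and Vpreb3 (1.84), of which the first pair form the surrogate light chain, Rag1 (3.05), which recombines receptor genes, and Dntt (2.91), which adds bases at their joints. Igll1 stood at 0.333, 0.332 and 1.89 CPM in GelMA and 12.7, 10.9 and 2.23 CPM in CTS (SE 0.89, adjusted p = 0.0425), Rag1 at 0.399, 0.698 and 1.12 CPM in GelMA and 4.96, 12.2 and 1.33 CPM in CTS (SE 0.80, adjusted p = 0.0392), and Vpreb1 had 11 counts over the GelMA libraries and 159 over the CTS libraries. CTS replicate 3 was the lowest CTS library for Igll1, Rag1 and Vpreb1 and lay just above the highest GelMA library for Igll1 and Rag1. Pax5 (-0.81) and Ebf1 (0.33), expressed through B cell development, were not called. The precursor calls were fragile, with 5 called in all 6 libraries but 1 without GelMA replicate 2, CTS replicate 1 or CTS replicate 2, and 0 in the fit on all 4 groups. B cell genes called lower numbered 7 to 11 when 1 library was left out.

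Plasma cell genes were lower in 7 of 8 tested. Mzb1, a chaperone of antibody-secreting cells, stood at 162, 142 and 125 CPM in GelMA and 18, 24.0 and 22.9 CPM in CTS, a log2 fold change of -2.73 (SE 0.16, adjusted p = 0.000855). The libraries of each group lay close together and far from those of the other. Sdc1 (-2.21), Prdm1 (-1.99), the factor of plasma cell differentiation, Pou2af1 (-1.73), Irf4 (-1.67), Derl3 (-1.56) and Tnfrsf17 (-1.39) were called, and Xbp1 (-0.30), used by many secretory cells, was not. Jchain was not analysed here.

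Of the 56 lymphoid members called, 30 kept their call whichever single library was left out, Ms4a1, Cd79a, Cd79b, Cd22, Fcrla, Mzb1, Sdc1, Pou2af1, Irf4, Ctla4, Icos, Cd28, Lck, Ctsw, Tbx21, Il2rb, Il2rg, Il7r, Ikzf3 and Gata3 among them. The adjusted p of edgeR rose to 0.05 or more, or the fold change fell under the threshold, without 1 library for Cd3e (0.0517 without CTS replicate 1), Cd4 (0.0532 to 0.0754 without GelMA replicate 1 or 2 or CTS replicate 1) and Cd8a (0.0575 to 0.0818 without GelMA replicate 1, 2 or 3 or CTS replicate 1). Also lost were Foxp3 (0.0575 to 0.0809 without GelMA replicate 1, 2 or 3 or CTS replicate 1 or 2), Zap70 (0.0507 to 0.0713 without GelMA replicate 1, 2 or 3 or CTS replicate 1) and Eomes (0.0525 to 0.0710 without GelMA replicate 2 or 3 or CTS replicate 3). In the same way the call ended for Ccl5 (0.0585 without CTS replicate 3), Gzmk (0.0610 to 0.121 without GelMA replicate 1, 2 or 3 or CTS replicate 1 or 3) and Gzmm (0.0675 to 0.0773 without GelMA replicate 2 or 3 or CTS replicate 3). The same held for Klrk1 (0.0791 to 0.103 without GelMA replicate 1, 2 or 3 or CTS replicate 1, log2 fold change -0.89 without CTS replicate 2), Prf1 (0.0582 to 0.0899 without GelMA replicate 2 or 3 or CTS replicate 3) and Blk (0.0510 without GelMA replicate 2). Calls that ended likewise were those of Bank1 (0.0509 to 0.0525 without GelMA replicate 2 or CTS replicate 3), Igll1 (0.0848 to 0.129 without GelMA replicate 1 or 2 or CTS replicate 1 or 2) and Vpreb1 (0.0802 to 0.143 without GelMA replicate 2 or 3 or CTS replicate 1 or 2). This was also seen for Rag1 (0.0774 to 0.131 without GelMA replicate 1, 2 or 3 or CTS replicate 1 or 2), Dntt (0.0604 to 0.118 without GelMA replicate 1, 2 or 3 or CTS replicate 1 or 2) and Prdm1 (0.0503 without CTS replicate 1). So it was for Derl3 (0.0647 to 0.0882 without GelMA replicate 1 or 2 or CTS replicate 2) and Tnfrsf17 (0.0577 to 0.0831 without GelMA replicate 1, 2 or 3).

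**Figure D3:**
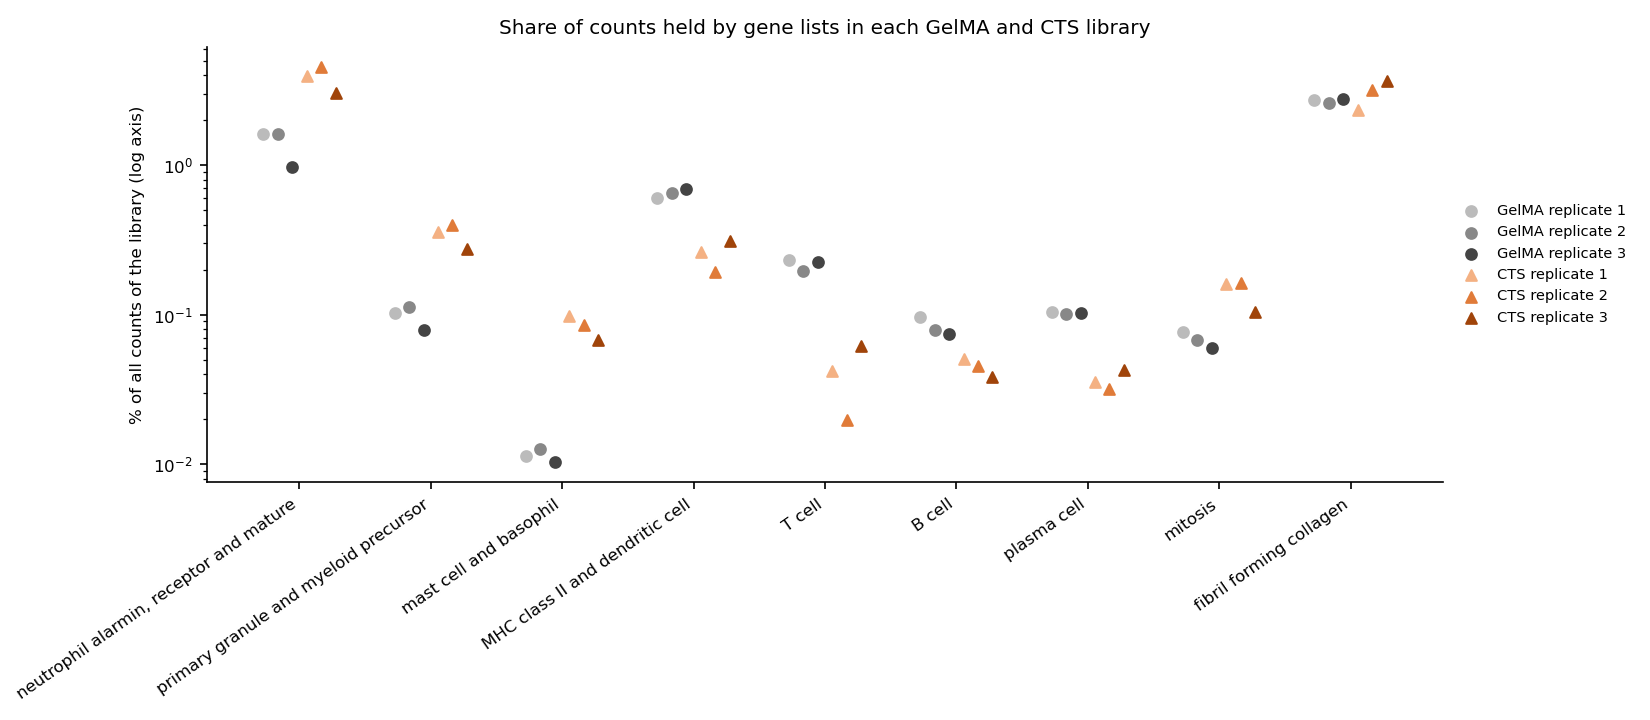
Share of all counts (%, log axis) held by 9 gene lists in each of the 3 GelMA libraries (grey circles) and 3 CTS libraries (orange triangles). Shares do not overlap for the 2 neutrophil lists and the mast cell, MHC class II, T cell, B cell, plasma cell and mitosis lists, and they overlap for fibril-forming collagens, while CTS replicate 3 is the CTS library nearest to GelMA for the neutrophil, primary granule, mast cell, MHC class II, T cell, plasma cell and mitosis lists.

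Genes of cell division were higher in CTS. Of 69 listed genes, all of them tested, 37 were called higher and 0 lower (53.6%, beside 4.94% of all tested genes called higher), and the median log2 fold change was 1.01. The count was 19 without GelMA replicate 2, 21 without GelMA replicate 3, 45 without CTS replicate 3, 2 in the fit on all 4 groups and 35 in that fit without NC replicate 2.

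Of 29 mitosis genes 23 were called, 10 without GelMA replicate 2 and 14 without GelMA replicate 3. Mki67, the Ki-67 antigen of cycling cells, stood at 125, 114 and 95.5 CPM in GelMA and 300, 297 and 190.4 CPM in CTS, a log2 fold change of 1.23 (SE 0.19, adjusted p = 0.00729). Top2a, the topoisomerase that untangles chromosomes, stood at 89.1, 67.4 and 65.0 CPM in GelMA and 251, 272 and 151 CPM in CTS (1.61, SE 0.24, adjusted p = 0.00628). For both genes all CTS libraries exceeded all GelMA libraries and CTS replicate 3 was the lowest of its group. The kinase Cdk1 (1.56), its cyclins Ccnb1 (1.07) and Ccnb2 (1.48), Birc5 (1.55), Aurkb (1.32), the checkpoint kinase Bub1 (1.38) and the factors Foxm1 (1.13) and Mybl2 (1.48) were called, while Aurka (0.48), Cdc20 (0.95), Kif23 (0.34), Ndc80 (0.85), Prc1 (0.85) and Tacc3 (0.28) were not. In 27 of the 29 the groups did not overlap, beside 38.4% of all tested genes.

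Of 28 replication genes 14 were called higher, 9 without GelMA replicate 2 and 7 without GelMA replicate 3. In 27 of the 28 the groups did not overlap, beside 38.4% of all tested genes. Mcm5, a subunit of the replicative helicase, stood at 28.5, 27.3 and 27.1 CPM in GelMA and 73.2, 83.0 and 47.8 CPM in CTS, a log2 fold change of 1.30 (SE 0.19, adjusted p = 0.00600). Its partners Mcm6 (1.01) and Mcm7 (1.08) were called, and Mcm2 (0.82), Mcm3 (0.86) and Mcm4 (0.92) were under the fold threshold. The helicase loaders and activators Cdc45 (1.88), Gins1 (1.64) and Mcm10 (1.63) and the nucleotide enzymes Tyms (1.39), Tk1 (1.43), Rrm1 (1.01) and Rrm2 (1.01) were also called. Pcna, the sliding clamp, had a small fold change (0.30, adjusted p = 0.0616). Of the 12 cell cycle inhibitor genes 0 were called by edgeR or by DESeq2, and 6 had an unadjusted p under 0.05. Without GelMA replicate 1 or CTS replicate 3, 1 was called higher. Cdkn1a, which encodes p21, stood at 221, 267 and 309 CPM in GelMA and 218, 196 and 218 CPM in CTS (-0.34, adjusted p = 0.133).

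Of the 37 proliferation members called, 17 kept their call whichever single library was left out, Mki67, Top2a, Cdk1, Ccnb2, Bub1, Foxm1, Mybl2, Mcm5, Mcm10, Cdc45, Gins1, Tyms and Tk1 among them. The adjusted p of edgeR rose to 0.05 or more, or the fold change fell under the threshold, without 1 library for Ccnb1 (0.0740 to 0.0870 without GelMA replicate 1, 2 or 3 or CTS replicate 1 or 2), Birc5 (0.0572 without GelMA replicate 2) and Aurkb (0.0538 without GelMA replicate 2). Also lost were Mcm6 (log2 fold change 0.90 to 1.00 without GelMA replicate 2 or 3 or CTS replicate 1 or 2), Mcm7 (log2 fold change 0.94 to 0.96 without GelMA replicate 3 or CTS replicate 2), Rrm1 (log2 fold change 0.95 to 0.99 without GelMA replicate 2 or 3 or CTS replicate 1 or 2) and Rrm2 (0.0508 without GelMA replicate 2, log2 fold change 0.85 to 0.92 without GelMA replicate 3 or CTS replicate 2).

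Upstream windows of 4 called cell cycle genes are shown because these genes moved together and are known for shared promoter elements. They are from RefSeq on GRCr8: Cdk1 (chr20:19265043-19265292, + strand), Top2a (chr10:84473094-84473343, - strand), Mcm5 (chr19:13488563-13488812, + strand) and Mcm6 (chr13:42404353-42404602, - strand). Capitals mark CCAAT and TTTGAA, the core of the cell cycle homology region, in Cdk1 and Top2a, on either strand. In Mcm5 and Mcm6 they mark CCAAT and TTTCGCGC, a form of the E2F element, on either strand. Among the lists TTTCGCGC was sought only in replication genes. The Cdk1 window also holds TTTCGCGC, left in lower case, so this element does not set the replication genes apart from the mitosis genes shown.
Cdk1: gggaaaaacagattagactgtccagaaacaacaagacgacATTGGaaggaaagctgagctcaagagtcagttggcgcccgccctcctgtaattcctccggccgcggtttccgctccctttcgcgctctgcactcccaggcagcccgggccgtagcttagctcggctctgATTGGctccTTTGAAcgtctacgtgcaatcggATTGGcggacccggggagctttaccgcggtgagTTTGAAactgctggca
Top2a: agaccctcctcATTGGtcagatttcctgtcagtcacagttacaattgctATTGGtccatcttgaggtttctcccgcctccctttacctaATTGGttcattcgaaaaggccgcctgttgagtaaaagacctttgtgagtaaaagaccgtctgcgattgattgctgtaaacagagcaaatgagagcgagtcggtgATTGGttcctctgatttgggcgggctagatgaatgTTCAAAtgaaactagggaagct
Mcm5: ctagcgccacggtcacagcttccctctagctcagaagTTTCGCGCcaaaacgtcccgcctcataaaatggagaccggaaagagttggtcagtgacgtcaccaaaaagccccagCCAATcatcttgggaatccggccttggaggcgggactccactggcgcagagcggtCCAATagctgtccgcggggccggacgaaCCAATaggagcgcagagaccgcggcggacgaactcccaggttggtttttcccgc
Mcm6: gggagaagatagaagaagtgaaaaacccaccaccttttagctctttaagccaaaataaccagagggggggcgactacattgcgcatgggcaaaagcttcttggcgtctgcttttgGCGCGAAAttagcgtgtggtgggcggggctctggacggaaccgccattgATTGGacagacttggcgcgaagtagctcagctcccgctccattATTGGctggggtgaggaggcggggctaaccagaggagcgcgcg

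CCAAT was found in 19 of the 24 mitosis genes with an entry, beside 36.1% of the 27457 symbols, and TTTGAA in 11, beside 17.2%. Of 22 replication genes with an entry TTTCGCGC was found in 5 (Mcm2, Mcm5, Mcm6, Mcm7 and Uhrf1), beside 0.277%, and CCAAT in 13. Of the mitosis genes called, 18 had an entry, and 15 of these held CCAAT and 7 held TTTGAA. Of the replication genes called, 12 had an entry, and 4 of these held TTTCGCGC and 9 held CCAAT.

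**Figure D4:**
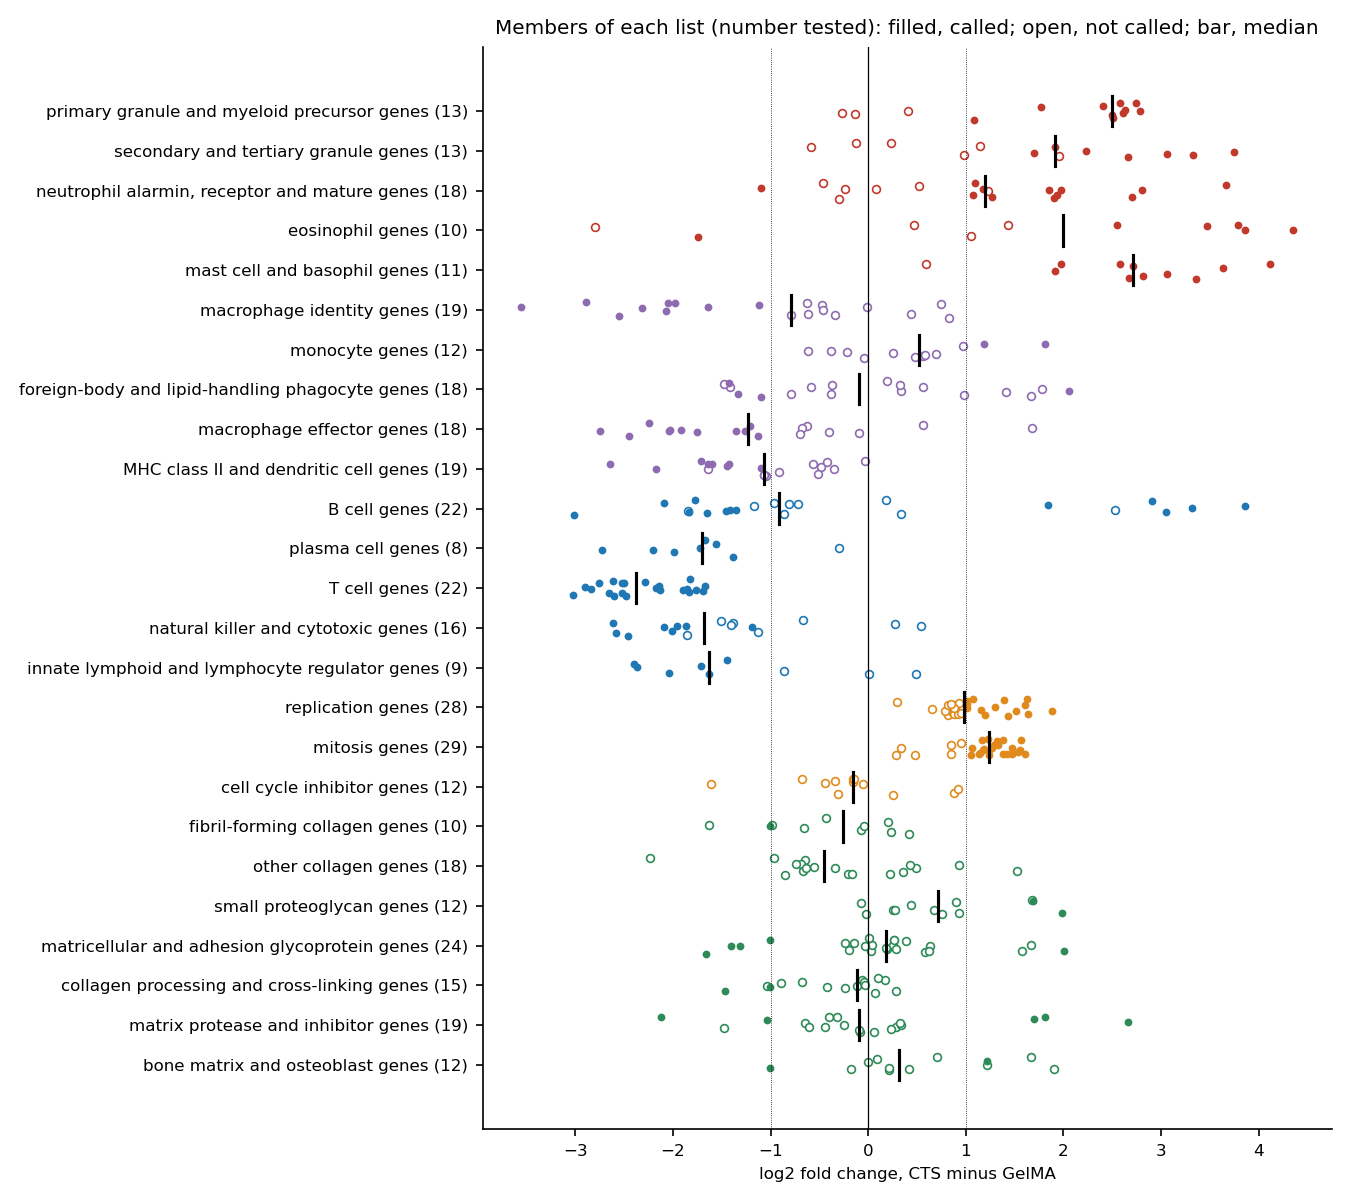
Log2 fold change (CTS minus GelMA) of every tested member of 25 gene lists (rows, number tested in brackets; filled, called; open, not called; black bar, median; dotted lines, fold threshold of 1). All 22 T cell genes are filled and lie between -3.03 and -1.67, B cell genes lie on both sides, and members of both collagen lists lie between -2.24 and 1.53 and are open but for Col11a1.

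Among the granulocyte, macrophage, lymphoid, proliferation and matrix lists, matrix had the smallest share called. Of 119 listed genes 117 were in the table and 109 were tested, 7 were called higher and 10 lower (15.6% called, beside 9.57% of all tested genes), and the median log2 fold change was 0.01. The counts were 6 and 2 without GelMA replicate 2, 7 and 18 without CTS replicate 3, 10 and 5 without CTS replicate 1, 8 and 3 without CTS replicate 2, and 0 and 2 in the fit on all 4 groups.

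The main structural collagens overlapped between the groups. Col1a1 stood at 9489, 8930 and 9169 CPM in GelMA and 8090, 10800 and 12980 CPM in CTS, a log2 fold change of 0.21 (SE 0.18, adjusted p = 0.470), and Col3a1, the collagen of loose and healing tissue, at 10290, 10230 and 11350 CPM in GelMA and 8884, 14130 and 14540 CPM in CTS (0.24, SE 0.20, adjusted p = 0.454). The CTS libraries enclosed the GelMA range for both genes, replicate 1 being below it and replicate 3 above. Of 10 tested fibril-forming collagens only Col11a1, a minor fibril component, was called lower, at the fold threshold (-1.0, SE 0.21, adjusted p = 0.0184), and of 18 other collagens 0 were called by edgeR and 1 by DESeq2, with 9 having an unadjusted p under 0.05. Without CTS replicate 3, 5 of them were called lower.

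Of the 7 matrix genes called higher, Omd and Aspn are small proteoglycans and Eln belongs to the elastic fibre. Eln, tropoelastin, stood at 25.7, 25.4 and 28.4 CPM in GelMA and 62.7, 130.2 and 126 CPM in CTS, a log2 fold change of 2.00 (SE 0.27, adjusted p = 0.00507). Omd, osteomodulin, which binds mineralised matrix, stood at 7.82, 6.68 and 7.16 CPM in GelMA and 18.4, 24.2 and 43.0 CPM in CTS (1.98, SE 0.31, adjusted p = 0.00723), and Aspn, asporin, had a log2 fold change of 1.69 (SE 0.25, adjusted p = 0.00678). CTS replicate 3 was the highest for Omd and Aspn, and the groups did not overlap for any of these genes. Dcn (0.75, adjusted p = 0.0961), Bgn (-0.07) and Lum (-0.03) were not called, nor were Fbn1 (0.29) and Fbln1 (0.20), which also belong to elastic fibres.

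Of 24 tested matricellular and adhesion glycoprotein genes, Eln was called higher and 4 were called lower. Over all tested genes 4.94% were called higher and 4.63% lower. The median log2 fold change of the list was 0.19, so the list as a whole did not lean lower. Tgfbi, an adhesion protein induced by TGF-beta, stood at 344, 523 and 779 CPM in GelMA and 141, 125 and 252 CPM in CTS (-1.67, SE 0.37, adjusted p = 0.0231), and Postn, periostin of periosteum and scar, at 896, 899 and 760.4 CPM in GelMA and 394, 418 and 458 CPM in CTS (-1.01, SE 0.12, adjusted p = 0.00321). Tnn (-1.41), a tenascin of bone-forming tissue, and Emilin1 (-1.31) were lower too. Fn1, fibronectin, stood at 1740, 2021 and 2017 CPM in GelMA and 2530, 2942 and 3189 CPM in CTS and was under the fold threshold (0.58, adjusted p = 0.0220), and Sparc (0.27), Thbs1 (0.02) and Tnc (-0.20) were not called. The cross-linking enzymes Plod2 (-1.46) and Tgm2 (-1.0) were lower, and Lox (0.07) and Serpinh1 (-0.04), the collagen chaperone, were not called.

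Of 19 matrix protease and inhibitor genes 3 were called higher and 2 lower. Mmp8 (2.66) and Mmp9 (1.70), which neutrophils store in granules and which are also in the granule list above, were higher in CTS, as was Mmp3 (1.81), stromelysin. Mmp13, the interstitial collagenase of bone and cartilage, stood at 71.2, 86.0 and 105 CPM in GelMA and 13.1, 9.41 and 37.8 CPM in CTS (-2.12, SE 0.50, adjusted p = 0.0291), and the membrane-bound Mmp14 had a log2 fold change of -1.04 (SE 0.22, adjusted p = 0.0184). Mmp2 (-0.08) and the inhibitors Timp1 (-0.65), Timp2 (0.23) and Timp3 (0.06) were not called.

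Of 12 tested bone genes 1 was called in each direction. Runx2, the factor of osteoblast commitment, stood at 104, 89.2 and 98.6 CPM in GelMA and 50.6, 41.3 and 52.8 CPM in CTS (-1.01, SE 0.13, adjusted p = 0.00362), and Smpd3, a sphingomyelinase needed for mineralisation, was higher (1.21, SE 0.21, adjusted p = 0.00970). Ibsp, bone sialoprotein, stood at 14.8, 16.1 and 7.74 CPM in GelMA and 12.2, 10.2 and 67.7 CPM in CTS and was not called (1.22, adjusted p = 0.302). CTS replicate 3 was far above the others, and without it the log2 fold change was -0.175. Alpl (0.09) and Bglap (1.90) were not called, and Sp7, Phex and Sost were not tested.

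Of the 17 matrix members called, 7 kept their call whichever single library was left out, Eln, Omd, Aspn, Emilin1, Mmp3, Mmp8 and Mmp9. The adjusted p of edgeR rose to 0.05 or more, or the fold change fell under the threshold, without 1 library for Col11a1 (0.0504 to 0.0769 without GelMA replicate 1 or 2 or CTS replicate 2), Tgfbi (0.0575 to 0.0853 without GelMA replicate 2 or 3 or CTS replicate 1 or 2) and Postn (log2 fold change -0.98 to -0.95 without GelMA replicate 1 or 2 or CTS replicate 1 or 2). In the same way the call ended for Tnn (0.0511 to 0.0686 without GelMA replicate 1 or 2 or CTS replicate 3), Plod2 (0.0504 to 0.0622 without GelMA replicate 2 or 3 or CTS replicate 2) and Tgm2 (0.0627 to 0.137 without GelMA replicate 1, 2 or 3 or CTS replicate 1 or 2). The same held for Mmp13 (0.0510 to 0.0972 without GelMA replicate 1, 2 or 3 or CTS replicate 1 or 2), Mmp14 (0.0531 to 0.0700 without GelMA replicate 2 or 3 or CTS replicate 2, log2 fold change -0.82 without CTS replicate 1), Runx2 (log2 fold change -0.96 to -0.89 without GelMA replicate 1 or CTS replicate 2) and Smpd3 (0.0542 without GelMA replicate 2).

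Of 89 tested markers of other cells that the digest could hold, 11 were called higher and 3 lower (15.7%, beside 9.57% of all tested genes). With 1 library left out the counts ran from 3 to 14 higher and from 1 to 9 lower. Of 12 endothelial genes 4 were called higher, Erg (1.89), Tek (1.19), Egfl7 (1.36) and Vwf (1.19), and Pecam1 (0.18) and Kdr (-0.89) were not. The list held 0.0301 to 0.0319% of counts in GelMA and 0.0283 to 0.0551% in CTS, ranges that overlap, and 1 member was called higher without GelMA replicate 1, GelMA replicate 2 or CTS replicate 3. Of 19 fibroblast and skeletal progenitor genes Pi16 (2.01), of adventitial fibroblasts, and Lepr (1.57) were called higher, while Pdgfra (-0.47), Prrx1 (-0.13) and Twist1 (0.60) were not, and 0 were called when any 1 GelMA library was left out. Pericyte and smooth muscle, cartilage and skeletal muscle lists had 0 members called by edgeR. Unadjusted p was under 0.05 in 3 of 12, 0 of 4 and 2 of 5 of their tested members, and DESeq2 called 0, 0 and 1. Without CTS replicate 3, edgeR called 3 members of the first list lower (median log2 fold change -0.60) and 1 skeletal muscle gene lower. Of 10 tested osteoclast genes Mmp9 alone was called. Without CTS replicate 2, and with DESeq2 on the 6 libraries, 3 were called higher, and without CTS replicate 3, 1 was called higher and 1 lower. The erythroid list, a measure of blood in the sample, held 0.0312 to 0.0546% of counts in GelMA and 0.0190 to 0.0243% in CTS. The globin gene Hba-a1 stood at 52.1, 144 and 132 CPM in GelMA and 30.2, 33.0 and 23.7 CPM in CTS (-1.92). Of 3 tested platelet and megakaryocyte genes Pf4, a platelet chemokine, was called lower (-2.08), while the median of the list was 0.46 and Itga2b stood at 0.96. Without CTS replicate 3, 1 member was also called higher. Calls were lost without 1 library for Tek (0.0519 to 0.0646 without GelMA replicate 1 or 2, log2 fold change 0.95 without CTS replicate 3), Egfl7 (0.0629 to 0.118 without GelMA replicate 1, 2 or 3 or CTS replicate 1 or 3) and Vwf (0.115 to 0.128 without GelMA replicate 1, 2 or 3, log2 fold change 0.70 without CTS replicate 3). Calls that ended likewise were those of Pi16 (0.0554 to 0.0686 without GelMA replicate 1, 2 or 3), Lepr (0.0627 to 0.113 without GelMA replicate 1, 2 or 3 or CTS replicate 2) and Hba-a1 (0.0553 to 0.0940 without GelMA replicate 2 or CTS replicate 1 or 3), the numbers being adjusted p from edgeR. The part of these cells in the differences above was not tested.

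Among called genes averaging 3 or more in log2 CPM whose groups did not overlap, proteases and granule proteins made up most of the largest rises in CTS. Obp3, an odorant-binding protein of the lipocalin family, had the largest, at 0.233, 0.0332 and 0.610 CPM in GelMA and 9.17, 4.26 and 49.2 CPM in CTS (6.13, SE 1.21, adjusted p = 0.0171), with wide spread in CTS. It was followed by Prss34 (4.82), Mcpt10 (4.82), Prss29 (4.66), Dnase2b (4.66), Prg2, Mcpt9 (4.30), Mcpt8, Prg3 (3.86) and LOC102556145 (3.80). Of these 10 genes 7 are proteases of the Mcpt and Prss families or eosinophil granule proteins. Which cells held the Prss29 RNA was not tested. The largest falls were in Saal1 (-4.11), Scart1 (-4.05), the chemokine Cxcl6 (-3.98), LOC691828 (-3.70), LOC680329 (-3.70), LOC108351342 (-3.56), Adgre1, LOC102551617 (-3.42), the complement protease Cfi (-3.33) and Il23a (-3.25), a subunit of interleukin 23. Cxcl6 stood at 53.4, 47.9 and 47.9 CPM in GelMA and 3.72, 1.24 and 4.45 CPM in CTS (SE 0.41, adjusted p = 0.00279), and Saal1 at 209, 470.2 and 589 CPM in GelMA and 20.9, 28.0 and 24.5 CPM in CTS (SE 0.39, adjusted p = 0.00272), GelMA replicate 1 being the lowest of its group for Saal1. The adjusted p of edgeR rose to 0.05 or more without 1 library for Obp3 (0.0571 to 0.0627 without GelMA replicate 1 or 2), Prss34 (0.0808 to 0.11 without GelMA replicate 1, 2 or 3 or CTS replicate 1 or 2) and Prss29 (0.0535 to 0.132 without GelMA replicate 1, 2 or 3 or CTS replicate 1, 2 or 3). This was also seen for Dnase2b (0.0511 to 0.0640 without GelMA replicate 2 or CTS replicate 1), Prg3 (0.0630 to 0.112 without GelMA replicate 1, 2 or 3 or CTS replicate 1 or 2) and LOC691828 (0.0565 to 0.155 without GelMA replicate 1 or 2 or CTS replicate 1 or 3). So it was for LOC680329 (0.0557 to 0.0669 without GelMA replicate 2 or CTS replicate 1), LOC108351342 (0.0850 to 0.18 without GelMA replicate 1 or 2 or CTS replicate 1, 2 or 3) and Il23a (0.0674 without CTS replicate 3).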

How the data were processed

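RNA-seq counts and FPKM values of Cd45- sorted cells were used as deposited by the authors, for 23781 genes by symbol. Per the submitters' processing notes, reads were trimmed with fastp, aligned with HISAT2 to mRatBN7.2 and counted with HTSeq, and DESeq was used for expression, with versions not given in the sources used here. FPKM is the deposited count per gene length and library total. 0 columns had no sample of the series, and no row was without a gene name.

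Counts of the 3 CTS and 3 GelMA libraries were filtered with filterByExpr (minimum count 10), scaled by TMM and tested with edgeR 4.0.16 in R 4.3.3 (robust quasi-likelihood fit, group alone), and p-values were adjusted by Benjamini and Hochberg across the 16077 genes. The NC and PLA libraries were kept out of the fit because an earlier analysis of these data found NC replicate 2 to stand apart. Steps were tested on simulated data. DESeq2 1.42.0 and limma 3.58.1 (on log2 of FPKM plus 1 or 0.1, with or without a minimum FPKM of 1 in 3 libraries) served as alternatives.

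The comparison, the 38 gene lists and the tests were chosen with earlier results of these data known. Named are the 10 largest called rises and falls among genes averaging 3 or more in log2 CPM whose groups do not overlap, up to 3 called members per list and direction (1 for other cells and states), and a fixed set of marker genes whatever their result. Members named beyond these were chosen after their values were seen, to describe their list. Figures were drawn with matplotlib 3.10.9. Some list members are not reported here.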

Additional observations from a re-analysis of the deposited data

How the results depend on the processing

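Of the 20 alternatives to the fit, some moved the counts of called genes (795 higher, 744 lower) by over 1.5 times. The counts were 1403 and 1429 without a fold threshold, 269 and 285 at an adjusted p under 0.01, 75 and 239 with all 4 groups in the fit, and 290 and 429 with limma on log2(FPKM + 1) without a filter. With that filter limma called 400 higher and 527 lower. Leaving out 1 library gave 328 to 1013 higher and 369 to 967 lower. DESeq2 on the 6 libraries called 1148 and 966. The share of higher genes among those called was 51.7% with TMM, 45.9% with library size alone and 23.9% with all 4 groups. The cause of these shifts was not tested, beyond the thresholds themselves and the fewer libraries.

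The replicate numbers of the labels as a block gave 729 higher and 726 lower. Same-numbered libraries did not deviate together (correlations of deviations from -0.02 to 0.02), and differently numbered libraries gave -0.049 to 0.057. The labels do not say whether the numbers pair the samples, and shared batches were not tested.

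Of 103 named genes called, 34 kept the call in every alternative, 41 lost it when 1 library was left out and 56 in the fit on all 4 groups, or 9 there without NC replicate 2, and 0 of the 103 changed sign. Signs changed only for genes not called: Ibsp (1.22) gave -0.175 to 1.646 with 1 library left out, the lowest without CTS replicate 3, and -0.438 without GelMA replicate 3 as well, and Ptprc (-0.09) gave -0.159 to 0.017 and 0.022. The last alternative, which leaves out CTS replicate 3 and GelMA replicate 3, was chosen after seeing the data. Groups of 3 libraries limit what small fold changes can show. Genes with few counts in a group, such as Vpreb1, are the least certain.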

Other observations

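The levels of the compared genes in the libraries outside the comparison are given side by side in FPKM, as mean ± SD, with no test. S100a8 was at 32110 ± 24420 in NC (n = 3), 9357 ± 4551 in GelMA, 32140 ± 6937 in CTS and 4728 ± 159 in PLA (n = 2), and Mcpt8 at 193 ± 145, 17.1 ± 8.75, 282 ± 108 and 7.97 ± 3.16 in the same order. NC replicate 2 held 0.565% of its counts in S100a8 and S100a9 and the other NC libraries 5.62% and 3.99%. Cd3e was at 4.39 ± 2.91, 94.2 ± 6.76, 12.6 ± 8.60 and 16.5 ± 1.06, and Ms4a1 at 0.492 ± 0.396, 37.3 ± 9.39, 4.42 ± 2.73 and 2.13 ± 1.75. For both genes GelMA was the highest of the 4 groups.

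Adgre1 was at 3.38 ± 0.758, 82.0 ± 19.4, 6.65 ± 0.717 and 18.7 ± 2.21 FPKM in NC, GelMA, CTS and PLA, and Ciita at 0.344 ± 0.18, 4.25 ± 0.248, 0.900 ± 0.297 and 0.698 ± 0.00867. Il1a at 12.8 ± 5.06, 189 ± 45.9, 43.7 ± 5.12 and 665 ± 32.3 had another order, with PLA the highest. Mki67 was at 17.6 ± 11.5, 10.9 ± 1.54, 24.5 ± 5.74 and 2.73 ± 0.344. Across the 795 genes higher in CTS than in GelMA, the NC mean lay nearer to the CTS than to the GelMA mean in 81.0%, and across the 744 lower genes in 95.2%, beside 64.8% of all tested genes. The PLA mean lay nearer to CTS in 25.4% and 50%, beside 44.5%. Neither was tested.

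Genes of cell state were called about as often as all genes (8.33% of 48 tested). Of 16 interferon response genes Ifit1 and Oas1a were called higher in CTS, and Ifit1 was at 14.6, 18.4 and 20.1 CPM in GelMA and 319.6, 75.5 and 28.2 CPM in CTS, with CTS replicate 1 far above the others and an adjusted p of 0.0457 (edgeR quasi-likelihood test). Without 1 library the calls were lost for Ifit1 (0.0564 to 0.131 without GelMA replicate 1, 2 or 3 or CTS replicate 1 or 2), Oas1a (0.0607 to 0.122 without GelMA replicate 1, 2 or 3 or CTS replicate 1 or 3) and Egln3 (0.0511 to 0.0574 without GelMA replicate 2 or 3, log2 fold change -0.88 without CTS replicate 3). Of 16 hypoxia and glycolysis genes the glucose transporter Slc2a1 (-1.45) and the oxygen sensor Egln3 (-1.08) were called lower in CTS, and Hif1a (-0.67), Pgk1 (0.00) and Ldha (-0.05) were not called. Of 16 immediate early and dissociation genes 0 were called by edgeR on the 6 libraries, 2 with an unadjusted p under 0.05, and 1 was called by DESeq2. Without GelMA replicate 1 or CTS replicate 3, 1 was called lower.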
